A study of Rattus norvegicus with 8 samples.

Results

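The mitosis and cytokinesis genes described here are 39 genes for mitotic kinases, cyclins, spindle motors, condensin subunits, kinetochore proteins and cytokinesis factors, listed by gene name with earlier results of these data known. Of these, 33 were rows of the deposited table of 16871 gene symbols. Cenpe, Kif4a, Ncapg, Ncapd2, Ncaph and Anln were not analysed here. Incenp, which encodes the scaffold of the Aurora B complex, was listed at 0 in every library, and 3 counts, the limit that a count of 0 allows, would have been at most 0.925 CPM (counts scaled to library size). The other 32 all passed the filter on low counts and were tested, so no member with a count was lost to it. Nascent RNA had been labelled with bromouridine (BrU), a base analogue that living cells build into new transcripts and that an antibody then captures for sequencing (BrU-seq).

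All libraries came from co-cultures of cortical and hippocampal cells of P1-P2 Sprague Dawley rat pups, labelled as hippocampal neurons. On day 14 in vitro the cultures received water as vehicle (H) or 1 µM tetrodotoxin (T, TTX), a toxin that blocks voltage-gated sodium channels and so action potentials, for 24 h. After a washout of 48 h, on day 17, vehicle or TTX was added for 4 h. BrU was present at 2 mM during the final 30 min. HH cultures were never silenced, HT cultures were silenced at the second treatment, TH cultures at the first, and TT cultures at both, with 2 libraries for each of the 4 groups. The labels do not say whether replicates came from separate cultures or litters, so each p-value reflects no more than how far these libraries vary, and that variation may be technical.

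Cells that divide make these transcripts mainly in the G2 and M phases. Cyclin B with Cdk1 drives entry into mitosis, condensins and topoisomerase II compact and untangle the chromosomes, and kinesins and the proteins that bind microtubules build the spindle. The checkpoint kinases hold anaphase until each kinetochore is attached, and the centralspindlin complex and RhoA signalling then divide the cell. Neurons have left the cell cycle for good, and the genes are known in postnatal brain tissue from glial progenitors and other cells that still divide. Their promoters are known for a cell cycle genes homology region (CHR), a short element bound by the MuvB complex, which represses the genes in resting cells together with p130 and activates them with B-Myb and FoxM1, and for CCAAT boxes bound by NF-Y.

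Total counts ran from 3489176 to 4959887 per library, and 11372 genes were tested. The members together held 1507 to 3769 counts in a library, or 0.0418% to 0.0882% of all counts, so that single members rested on few reads, from 2 for Ccnb2 in HH replicate 1 to 252 for Kif15 in TT replicate 2. Replicates correlated at 0.974 to 0.987 (Pearson, across genes) and differed by more than sampling noise, most in HH. Neuron and glia markers were both present: summed CPM ran from 745 to 1100 for 7 excitatory neuron markers and from 1400 to 2040 for 8 astrocyte markers, and no marker in the table was at 0 in all libraries.

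The promoters are shown first, since the list of members does not use sequence. RefSeq promoter windows of build GRCr8, which reach from 250 bases before to 50 bases after the gene start, were found for 27 of the 32 tested members. The motif TTTGAA, the core of the CHR, was searched on both strands and stood in 20 of the 27 windows (74.1%), against 982 of 8627 windows of tested genes (11.4%). The motif CCAAT, also searched on both strands, can share no more than an end base with it and stood in 22 (81.5%) against 37.6%, and 2 or more copies in 14 (51.9%) against 13.4%. Both motifs together were found in 18 member windows (66.7%) and in 4.8% of the windows of tested genes. Over all 27457 symbols with a window, the shares were 18.1% for TTTGAA, 37.7% for CCAAT and 7.25% for both. A match is a run of letters and not a measured site.

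The windows below, 150 bases before to 20 bases after the gene start, belong to the 6 members with the smallest unadjusted p for the second TTX that had a window, and capitals mark TTTGAA and CCAAT on either strand. A motif on the opposite strand reads TTCAAA or, for the CCAAT box, ATTGG.
Ect2, chr2:111966607-111966776, minus strand: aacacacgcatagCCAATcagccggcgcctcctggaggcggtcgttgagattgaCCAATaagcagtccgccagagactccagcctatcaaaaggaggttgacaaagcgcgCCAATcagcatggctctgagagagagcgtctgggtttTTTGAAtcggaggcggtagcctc
Smc4, chr2:155550112-155550281, plus strand: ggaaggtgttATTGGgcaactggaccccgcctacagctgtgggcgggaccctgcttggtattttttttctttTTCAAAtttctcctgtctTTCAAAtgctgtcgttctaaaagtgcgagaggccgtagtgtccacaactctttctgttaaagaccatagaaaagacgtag
Cenpf, chr13:103760867-103761036, minus strand: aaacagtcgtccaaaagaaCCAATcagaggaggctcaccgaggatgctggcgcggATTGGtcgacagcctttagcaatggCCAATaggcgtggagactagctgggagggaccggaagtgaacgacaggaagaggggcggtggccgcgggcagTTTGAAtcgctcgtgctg
Kif15, chr8:131479254-131479423, plus strand: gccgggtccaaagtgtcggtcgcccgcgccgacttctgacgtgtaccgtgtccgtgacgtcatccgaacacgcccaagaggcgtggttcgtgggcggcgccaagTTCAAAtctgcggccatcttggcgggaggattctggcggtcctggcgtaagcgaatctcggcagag
Smc2, chr5:71602255-71602424, plus strand: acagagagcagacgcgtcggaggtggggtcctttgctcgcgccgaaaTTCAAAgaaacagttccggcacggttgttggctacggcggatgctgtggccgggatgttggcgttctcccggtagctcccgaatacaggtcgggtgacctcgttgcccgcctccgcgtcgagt
Cdk1, chr20:19265143-19265312, plus strand: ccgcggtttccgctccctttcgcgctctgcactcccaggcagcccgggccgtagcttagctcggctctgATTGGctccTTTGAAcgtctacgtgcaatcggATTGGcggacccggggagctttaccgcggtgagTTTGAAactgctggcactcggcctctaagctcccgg
In Ect2, Cenpf and Cdk1 a TTTGAA lay close to the gene start, with CCAAT boxes upstream of it. Smc4 held 2 copies of TTTGAA on the other strand and 1 CCAAT box, while the Kif15 and Smc2 windows printed held 1 TTTGAA and no CCAAT. Members without TTTGAA in the full window included Ccnb1, Aurka, Bub1 and Kif11. The 20 members with the motif had a median log2 change of 0.61 with the second TTX (0.13 to 0.76), and the 7 without it a median of 0.58 (0.15 to 0.76), which is a description of overlapping ranges.

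**Figure D1:**
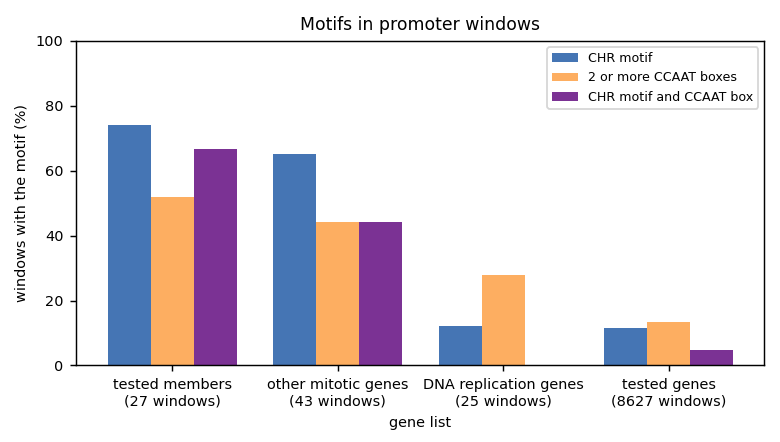
Share of RefSeq promoter windows (y axis, percent) that hold the CHR motif, 2 or more CCAAT boxes, or both the CHR motif and a CCAAT box, for the tested members, 43 other mitotic genes, 25 DNA replication genes and 8627 tested genes. The CHR motif stood in 74.1% of member windows and in 12% of those of DNA replication genes.

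The first question is how these genes differed after 4 h of TTX, whatever the cultures' history. All 32 tested members had a log2 change above 0 with the second TTX averaged over both histories, with a median of 0.63 and a range of 0.13 to 0.82. Over all genes tested, 49.7% lay above 0 and the median was -0.0011. The members' summed level was 465 and 472 CPM in HH, 501 and 572 in TH, 678 and 864 in HT, and 725 and 751 in TT. Every library given the second TTX thus stood above every library given vehicle, HH stood lowest and HT replicate 2 highest.

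No member passed the threshold of 0.05 after Benjamini-Hochberg adjustment over all 11372 genes (edgeR, smallest adjusted p = 0.192), and neither did any other gene (0%). At an unadjusted p under 0.05, 25 of the 32 members (78.1%) were higher and none lower, against 4.35% of genes that were higher. In 19 members all 4 TTX libraries lay above all 4 vehicle libraries, which held for 2.69% of all genes. Ect2 and Smc4 had the 2 smallest p-values of the 11372 genes. DESeq2 called 13 genes, Ect2 among them (adjusted p = 0.0283, DESeq2), edgeR without a filter on low counts called 16, of which 5 were members (Ect2, Smc4, Kif15, Cenpf and Tpx2, adjusted p from 0.0176 to 0.0477), and limma-voom called 0. In the alternatives that kept all 8 libraries, 23 members in DESeq2 and 25 in each of the others were higher at an unadjusted p under 0.05. The share of all genes was 2.14% in DESeq2 and 3.5% to 4.46% in the others.

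HH replicate 1 stands apart in early genes of neuronal activity, with Npas4 at 53.0 CPM, Fos at 37.0 and Arc at 41.6, against 1.97 to 9.57, 5.74 to 11.6 and 3.64 to 9.31 in the other libraries, where HT replicate 1 was highest for each of the 3. Among the members HH replicate 1 was the lower of the HH pair in 16 of the 32. Without both libraries, all 32 members still lay above 0 (median 0.69), 25 were higher at an unadjusted p under 0.05 and 23 had no overlap between TTX and vehicle libraries, against 3.83% and 6.88% of all genes. That fit keeps a single HH and a single HT library, whose spread is taken from the TH and TT pairs. The lowest value of a member fell in an HH library for 26 of 32, and the highest in HT replicate 2 for 22 of 32. In the vehicle libraries besides HH replicate 1, Npas4, Fos and Arc were no higher than in the highest TTX library. Npas4 stood there at 3.91 CPM in HH replicate 2 and at 3.87 and 3.24 in TH. Outside HH replicate 1 these early genes thus did not separate vehicle from TTX libraries.

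**Figure D2:**
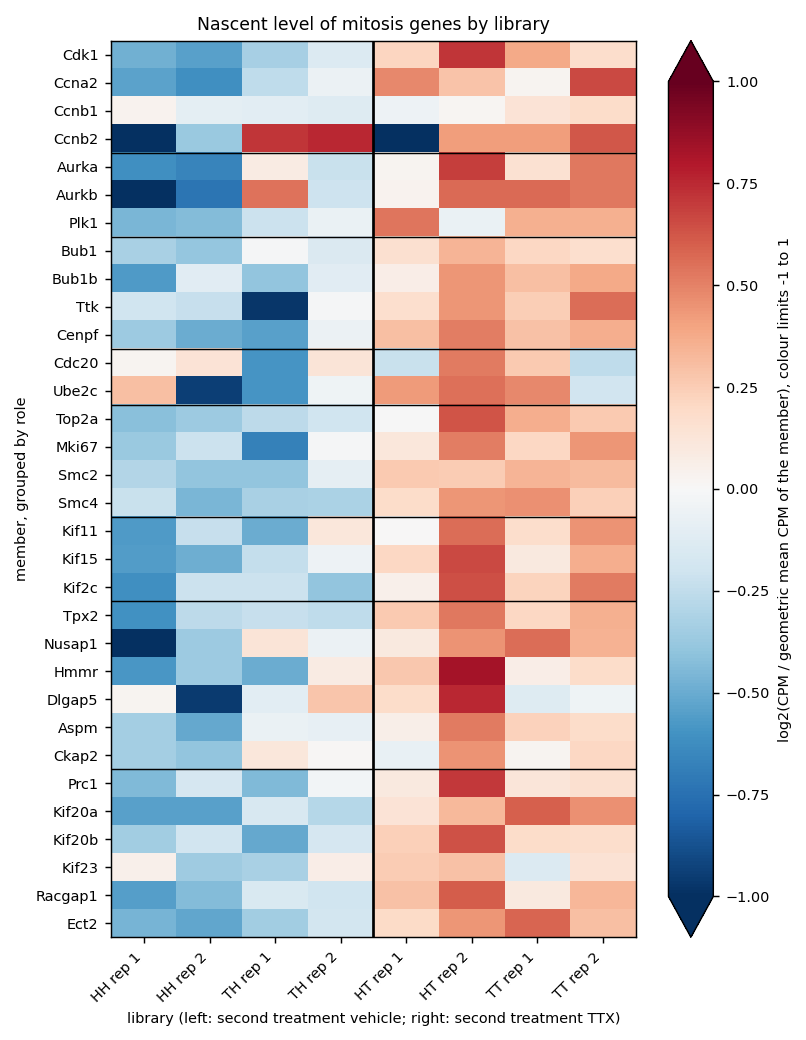
Nascent level of the 32 tested members (rows, grouped by role) in the 8 libraries (columns), as log2 of the CPM over the member's geometric mean over the 8 libraries. The 4 vehicle libraries on the left are mostly below the members' means and the 4 TTX libraries on the right mostly above, with Ccnb1, Ccnb2, Cdc20 and Dlgap5 among the rows that depart from this.

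Among cyclins and Cdk1, the kinase that starts mitosis and its partner cyclin A2 differed most between treatments. Cdk1 stood at 12 and 11.5 CPM in HH, 13.3 and 15.2 in TH, 19.4 and 27.5 in HT, and 21.7 and 18.9 in TT. TTX and vehicle libraries did not overlap, and the log2 change was 0.75 ± 0.16 (SE, n = 4 libraries a treatment, adjusted p = 0.221, edgeR). Ccna2, cyclin A2, ran from 4.96 to 7.29 CPM with vehicle and from 7.72 to 12 with TTX (0.75 ± 0.21). The B cyclins had smaller changes, and their difference from Cdk1 and Ccna2 was not tested. Ccnb1 stood at 28.1 and 25.6 CPM in HH, 25.4 and 25.1 in TH, 26.4 and 27.8 in HT, and 30.1 and 31.1 in TT, so that vehicle and HT libraries overlapped and only the TT libraries lay above the rest (0.15 ± 0.11). Ccnb2 had 2 to 14 counts in a library, and its difference of 0.19 ± 0.43 was not detectable at this depth.

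The mitotic kinases Aurka, Aurkb and Plk1 all stood higher at an unadjusted p under 0.05. Aurora A, which matures centrosomes, ran from 6.26 to 10.5 CPM with vehicle and from 10.1 to 16.0 with TTX (0.73 ± 0.20). Plk1, a kinase of centrosomes and kinetochores, ran from 7.71 to 10.1 and from 10.1 to 15.3 CPM (0.60 ± 0.18). In both genes the highest vehicle library reached the lowest TTX library. Aurkb, the kinase that corrects faulty attachments, had 4 to 22 counts in a library and the largest value of all members, 0.82 ± 0.32. It stood at 1.23 and 1.83 CPM in HH and at 2.63 to 4.49 CPM in every other library, TH included.

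Of the checkpoint and kinetochore genes, Cenpf, Bub1, Bub1b and Ttk each had all TTX libraries above all vehicle libraries. Cenpf encodes a large kinetochore protein that binds microtubules. It stood at 20 and 18.3 CPM in HH, 17.7 and 24.7 in TH, 31.8 and 36.8 in HT, and 31.6 and 33.1 in TT, a log2 change of 0.72 ± 0.14 (adjusted p = 0.192, edgeR). The gap between the treatments, 6.95 CPM, was about as wide as the spread between the TH replicates. Changes were smaller for the checkpoint genes: 0.58 ± 0.16 for Bub1b, 0.65 ± 0.20 for Ttk, the kinase Mps1, and 0.44 ± 0.14 for Bub1. Ttk was low in TH replicate 1 at 7.18 CPM, against 12 to 14 in the other vehicle libraries.

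Cdc20 and Ube2c, an activator and the ubiquitin-conjugating enzyme of the anaphase-promoting complex that ends mitosis, had 5 to 18 counts in a library. Cdc20 ran from 2.21 to 3.65 CPM with vehicle and from 2.79 to 4.77 with TTX, a difference of 0.13 ± 0.31 whose sign turned without HT replicate 2 (-0.078), TH replicate 1 (-0.012) or TT replicate 1 (-0.0034). Ube2c stood at 0.56 ± 0.36. Neither difference was detectable at this depth.

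The 4 tested genes of chromosome structure gave the most even picture, with changes of 0.58 to 0.66 and no overlap between treatments in any of them. Smc4, an ATPase arm of condensin, stood at 36.1 and 30.8 CPM in HH, 33.7 and 33.8 in TH, 47.9 and 57.3 in HT, and 57.8 and 49.8 in TT (0.66 ± 0.11, adjusted p = 0.192, edgeR). The TH libraries lay between the HH libraries, the HT and TT libraries overlapped, and the treatments lay 11.8 CPM apart at their nearest libraries. Smc2, the other ATPase arm, ran from 19.3 to 23.9 CPM with vehicle and from 30.3 to 32.1 with TTX (0.58 ± 0.12). Top2a, topoisomerase II alpha, stood at 21.6 and 22.4 CPM in HH, 24.0 and 25.1 in TH, 28.7 and 44.6 in HT, and 37.1 and 34.5 in TT (0.64 ± 0.15). Mki67, which coats mitotic chromosomes and is the usual histological marker of dividing cells, ran from 17.7 to 28.1 and from 30.5 to 40.4 CPM (0.62 ± 0.16).

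Of the spindle motors, Kif15 stood at 26.5 and 27.9 CPM in HH, 33.1 and 37.8 in TH, 45 and 61.8 in HT, and 41.9 and 50.2 in TT (0.67 ± 0.13, adjusted p = 0.192, edgeR). It encodes a plus-end motor that keeps the spindle bipolar beside Kif11. In the RefSeq annotation the gene overlaps RGD1311745, whose reads cannot be told apart from its own without strand. That gene stood at 2.63 to 6.52 CPM with a change of 0.080 ± 0.27. The same limit holds for 4 other members whose overlapping gene was tested. Cdc23 stood at 42.3 to 55.1 CPM against 3.39 to 7.47 for Kif20a, and Ide at 132 to 151 CPM against 24.4 to 53.3 for Kif11. Ndufaf1, beside Nusap1, and Fam210b, beside Aurka, stood at 5.95 to 11.7 and 8.8 to 12.5 CPM. The partners' log2 changes with the second TTX were 0.10 ± 0.096 for Cdc23, -0.060 ± 0.083 for Ide, -0.14 ± 0.24 for Ndufaf1 and -0.046 ± 0.17 for Fam210b. Plk1 overlaps Ern2, which was in the table but not tested. Ect2, Smc4, Smc2, Tpx2, Aspm, Prc1 and Kif20b overlap genes that were not rows of the table, so their neighbours' levels were not seen. Kif2c, which depolymerizes microtubules at kinetochores, had no overlap between treatments (0.73 ± 0.19). Kif11, the Eg5 motor that pushes the poles apart, overlapped through TH replicate 2 at 39.1 CPM and HT replicate 1 at 36.2 (0.58 ± 0.17).

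Among proteins that bind the spindle, Tpx2, the activator of Aurora A, stood apart most clearly, from 17.9 to 23.2 CPM with vehicle and from 31.4 to 39.3 with TTX (0.67 ± 0.13, adjusted p = 0.192, edgeR). Aspm, which focuses spindle poles, followed with 0.50 ± 0.13 and no overlap. Nusap1 (0.69 ± 0.18) and Hmmr (0.66 ± 0.19), a receptor for hyaluronan that also binds spindle microtubules, overlapped through a single vehicle library each. Dlgap5 (0.35 ± 0.22) and Ckap2 (0.32 ± 0.16) did not reach an unadjusted p under 0.05. Dlgap5 stood at 23.0 CPM in HT replicate 2 and at 12.5 to 15.5 in the other TTX libraries, within the vehicle range of 7.04 to 16.6.

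The midzone and cytokinesis genes held the member of smallest p. Ect2 encodes the exchange factor that activates RhoA at the cell equator. It stood at 24.7 and 23.7 CPM in HH, 26.8 and 30.0 in TH, 38.8 and 46.3 in HT, and 50.8 and 41.8 in TT, a log2 change of 0.76 ± 0.12 (unadjusted p = 4.64e-05, adjusted p = 0.192, edgeR). Each TTX library was at least 8.86 CPM above each vehicle library. Racgap1, the centralspindlin subunit that recruits Ect2, ran from 13.0 to 17.1 and from 20.4 to 28.9 CPM (0.67 ± 0.14). Kif23, the motor subunit of the same complex, ran from 15.4 to 20.6 CPM with vehicle and from 17.9 to 24.1 with TTX. Its change was smaller (0.27 ± 0.15, unadjusted p = 0.105, edgeR), and its difference from Racgap1 was not tested. Kif20a (0.76 ± 0.22), Kif20b (0.60 ± 0.14) and Prc1 (0.53 ± 0.17), which bundles midzone microtubules, had no overlap between treatments.

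**Figure D3:**
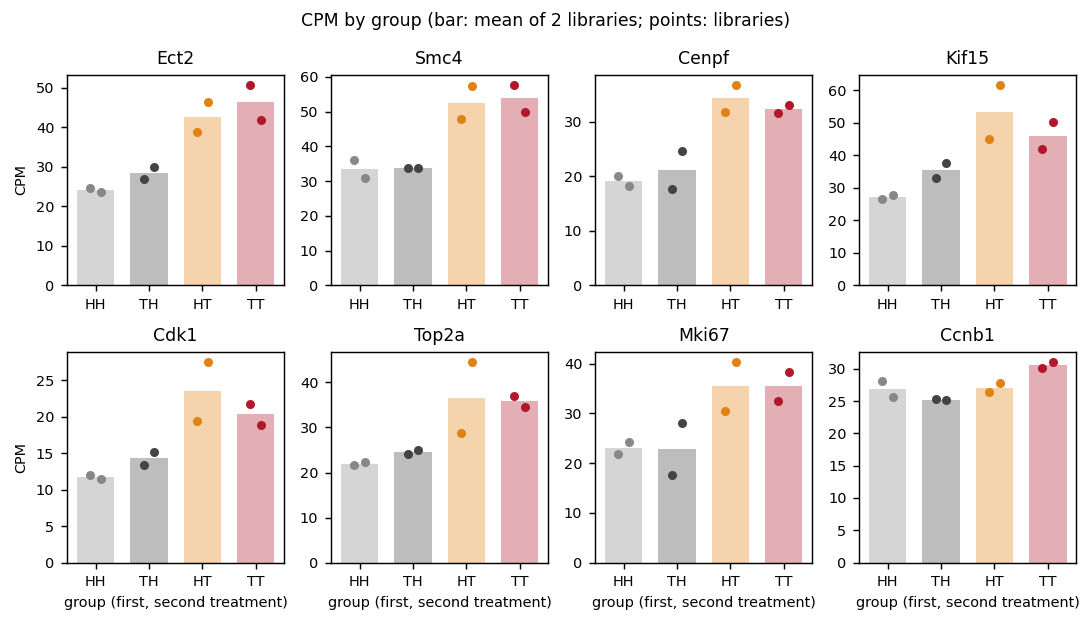
CPM of 8 members in each group (x axis; first letter for the first treatment, second letter for the second), with bars for the mean of 2 libraries and points for the libraries. In 7 of the 8 genes both HT and both TT points lie above all HH and TH points, and in Ccnb1 only the TT points do.

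**Figure D4:**
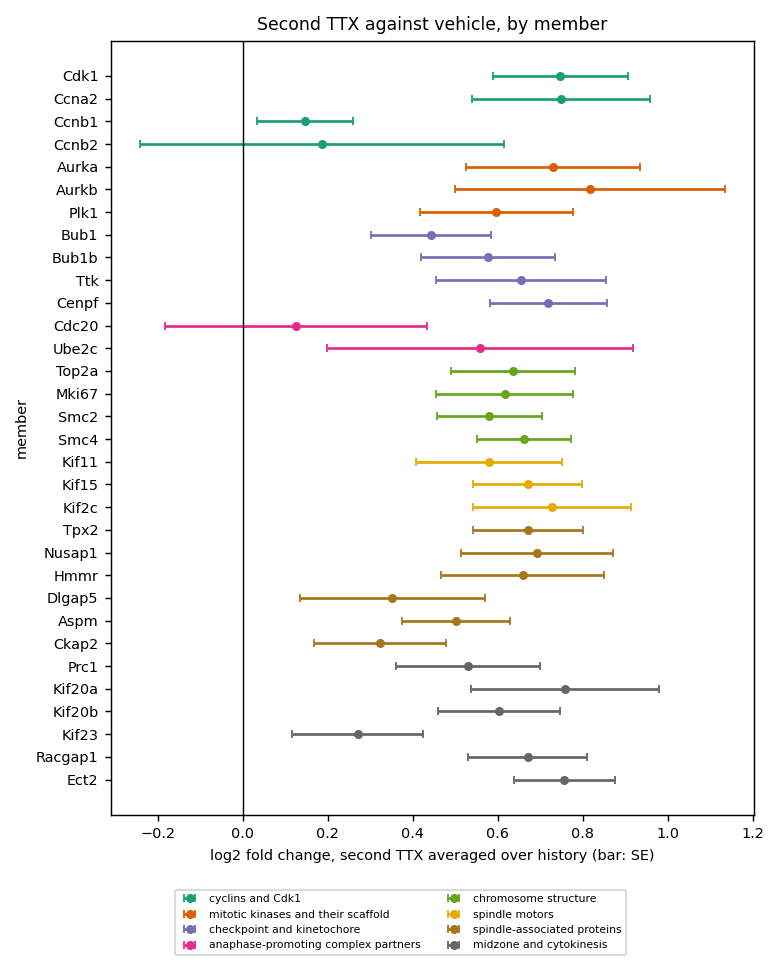
Log2 fold change of each tested member with the second TTX averaged over history (x axis), with bars of 1 SE and colours for roles. All 32 points lie above 0, from 0.13 for Cdc20 to 0.82 for Aurkb.

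The second question is whether the difference was there in cultures with and without earlier silence. In cultures silenced for the first time (HT against HH), all 32 members lay above 0 with a median log2 change of 0.72, 26 were higher at an unadjusted p under 0.05 (3.75% of all genes were) and 29 had both HT libraries above both HH libraries (18.6% of all genes). Kif15 at 0.97 ± 0.19, Ect2 at 0.81 ± 0.17, Racgap1 at 0.94 ± 0.20, Tpx2 at 0.82 ± 0.19 and Cdk1 at 0.99 ± 0.23 had the smallest p-values among members (n = 2 libraries a group, adjusted p = 0.519 for each, edgeR). The largest change belonged to Aurkb, at 1.27 ± 0.50. Without HT replicate 2, the library in which most members were highest, the median was 0.56 and 29 members lay above 0.

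In cultures silenced before (TT against TH), 30 of 32 members lay above 0 with a median of 0.45, and 13 were higher at an unadjusted p under 0.05 (1.71% of all genes were). Both TT libraries lay above both TH libraries in 24 members, against 15.9% of all genes. Smc4 stood at 0.67 ± 0.16, Ect2 at 0.70 ± 0.16, Smc2 at 0.55 ± 0.17 and Cenpf at 0.60 ± 0.19 (n = 2 libraries a group, adjusted p = 1.00 for each, edgeR). Dlgap5 (-0.19 ± 0.30) and Ccnb2 (-0.20 ± 0.49) lay below 0. In DESeq2 the count of 13 was 6, against 0.598% of all genes, with 30 of 32 members above 0. Without TH replicate 1 the median was 0.40, and without TT replicate 2 it was 0.43, each with 28 of 32 members above 0.

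The difference between these responses was tested as an interaction, and no gene passed (0%; smallest adjusted p among members = 1.00, edgeR). The members' median was -0.29, with 26 of 32 below 0, that is, with the smaller value in cultures silenced before. Of the members, Dlgap5 (-1.09 ± 0.44) and Kif15 (-0.59 ± 0.26) were lower at an unadjusted p under 0.05 and none was higher, against 0.906% of all genes lower. Smc4 (0.015 ± 0.22) and Ect2 (-0.12 ± 0.24) had values near 0, with errors that leave room for differences of either sign. The median moved to -0.14 without HT replicate 2, to -0.15 without TH replicate 2 and to -0.44 without TH replicate 1.

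**Figure D5:**
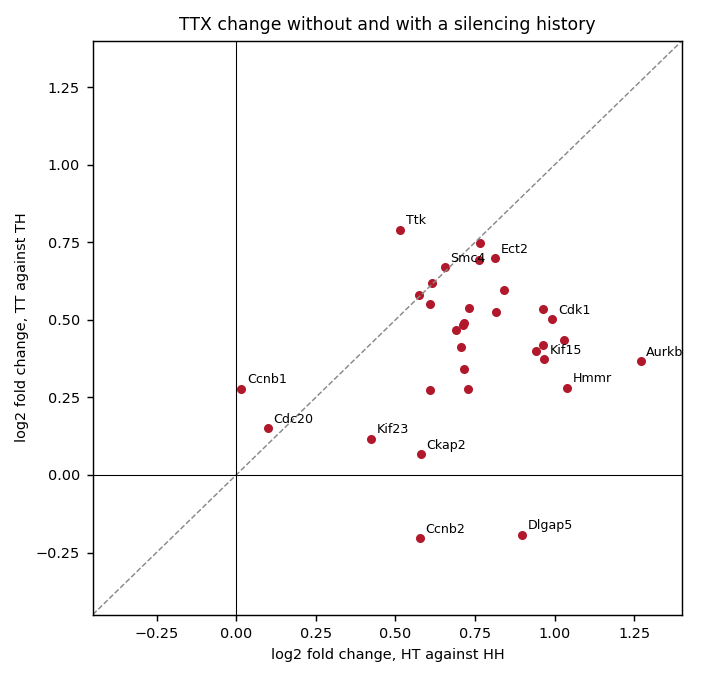
Log2 fold change of each tested member in HT against HH (x axis) and in TT against TH (y axis), which share no library, with the dashed line marking equal change. All 32 points lie above 0 on the x axis and 26 lie below the dashed line, with Dlgap5 and Ccnb2 below 0 on the y axis.

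The third question is what the earlier silence left behind after the washout of 48 h and the second treatment of 4 h. With vehicle at the second treatment (TH against HH), 27 of 32 members lay above 0 with a median of 0.24, and 16 had both TH libraries above both HH libraries (16.7% of all genes). At an unadjusted p under 0.05, 3 members (9.38%) were higher, against 2.06% of all genes, and no gene passed the adjusted threshold (0%, edgeR). These were Nusap1 (0.72 ± 0.27), a spindle protein that stood at 7.40 and 12.8 CPM in HH and 18.0 and 15.8 in TH, Aurkb (1.13 ± 0.50) and Ccnb2 (1.48 ± 0.62), the last of them resting on 2 to 14 counts. TH was the lower of the vehicle groups in mean CPM for 6 of the 32 members, HH for 26. Without TH replicate 2 the members above 0 were 19 (median 0.16), and without TH replicate 1 they were 31 (median 0.29). HH libraries are the controls here and in HT against HH, so the 2 sets of values are not independent of each other.

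Under TTX the members had no common direction by history. In TT against HT 15 of 32 lay above 0 with a median of -0.031, none was higher or lower at an unadjusted p under 0.05 (1.28% and 1.06% of all genes), and the smallest p, 0.0797, was that of Dlgap5 (-0.57 ± 0.30). The median's sign depended on 1 library: it was -0.24 without HT replicate 1 and 0.16 without HT replicate 2. Averaged over the second treatment, history gave a median of 0.058 with 24 of 32 above 0 and 2 members higher at an unadjusted p under 0.05 (3.01% of all genes), Ccnb2 (1.09 ± 0.42) and Nusap1 (0.44 ± 0.18). That median was -0.015 without HT replicate 1.

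Other genes of the mitotic programme, 61 that are not members, gave a similar picture, with 51 in the table and 50 tested. With the second TTX averaged over history 47 of 50 lay above 0 (median 0.54), against 49.7% of all genes above 0. At an unadjusted p under 0.05, 28 (56.0%) were higher and 1 lower, against 4.35% of all genes higher. Kif18b, a motor that shortens astral microtubules, ran from 12.6 to 19.8 CPM with vehicle and from 24.3 to 27.2 with TTX (0.73 ± 0.14), while Ccnf stood at 0.59 ± 0.13 and Fbxo5, the inhibitor Emi1 of the anaphase-promoting complex, at 0.91 ± 0.20 (adjusted p = 0.192 to 0.258, edgeR). None of them passed. Their promoter windows held TTTGAA in 28 of 43 (65.1%).

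The factors known to act on mitotic promoters and on exit from the cycle were less uniform, with 19 of 26 above 0 and a median of 0.15. Of all genes, 49.7% lay above 0. The other 7 factors lay below 0, the lowest at -0.45. At an unadjusted p under 0.05, 6 (23.1%) were higher and 0 lower, against 4.35% of all genes higher. Foxm1, the activator of G2 and M genes, stood at 4.32 and 3.13 CPM in HH, 6.63 and 8.30 in TH, 9.05 and 9.55 in HT, and 7.72 and 10.6 in TT (0.81 ± 0.21, adjusted p = 0.328, edgeR). Its TH and TT libraries overlapped while its HH and HT libraries did not. E2f7 (0.59 ± 0.17) and Mybl1 (0.51 ± 0.16) came next by p.

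DNA replication genes, active in the S phase before, lay above 0 in 22 of 29, with a median of 0.23, against 0.63 for the mitosis members. Of them, 7 (24.1%) were higher at an unadjusted p under 0.05, against 4.35% of all genes. In 1 of the 29 all TTX libraries lay above all vehicle libraries, near the 2.69% of all genes, while this held for 19 of 32 members. Rrm2, a subunit of ribonucleotide reductase, stood at 0.86 ± 0.18, Mcm10 at 0.80 ± 0.27 and Tk1 at 0.53 ± 0.20 (adjusted p = 0.224 to 0.586, edgeR). Whether the lists differ was not tested, since the members were chosen with results of these data known.

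The summed markers of oligodendrocyte progenitors and of neural progenitors also stood higher in the TTX libraries. The summed level of 7 oligodendrocyte progenitor markers was 385 to 422 CPM in HH, 454 to 494 in TH, 557 to 600 in HT and 542 to 554 in TT, and all 7 lay above 0 with the second TTX (median 0.33). Cspg4, the NG2 proteoglycan of these progenitors, stood at 0.39 ± 0.086 and Gpr17 at 0.91 ± 0.22. By history, Cspg4 stood at 0.73 ± 0.12 in HT against HH and at 0.041 ± 0.12 in TT against TH. Gpr17 stood at 1.0 ± 0.33 and 0.81 ± 0.28 in the same comparisons. The 7 neural progenitor markers summed to 186 to 231 CPM in HH, 183 to 208 in TH, 232 to 308 in HT and 232 to 260 in TT, 5 of 7 above 0 (median 0.20), from 0.67 ± 0.21 for Vim and 0.54 ± 0.17 for Nes to -0.37 ± 0.18 for Pax6. Sox2 stood at 0.24 ± 0.11, Hes5 at 0.20 ± 0.25, Hes1 at 0.048 ± 0.20 and Prom1 at -0.061 ± 0.32. With the second TTX averaged over history all 8 astrocyte markers lay above 0 (median 0.18), with overlapping sums of 1400 to 1760 CPM with vehicle and 1670 to 2040 with TTX. Of 6 tested markers of mature oligodendrocytes 5 lay above 0 (median 0.58), with sums of 162 to 237 and 207 to 393 CPM.

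Microglia, endothelial, and pericyte and fibroblast markers were scarce, with sums of 10.9 to 17.1, 54.8 to 100 and 13.6 to 25.3 CPM that overlapped between treatments, and 3 of 8, 4 of 6 and 2 of 7 of them tested. Inhibitory neuron markers stood lower in the TTX libraries, with sums of 570 to 680 CPM against 680 to 1100 with vehicle, 6 of 8 below 0 and a median log2 change of -0.19. Gad1 and Gad2, the enzymes that make GABA, stood at -0.58 ± 0.14 and -0.44 ± 0.12 (adjusted p = 0.284 and 0.345, edgeR). Sst stood at -0.58 ± 0.33 and Dlx2 at -0.339 ± 0.215. Slc32a1 (-0.049 ± 0.20), Lhx6 (-0.0013 ± 0.14), Dlx1 (0.0058 ± 0.14) and Dlx5 (0.013 ± 0.20) lay near 0. Excitatory neuron markers had overlapping sums, 886 to 1100 CPM with vehicle and 745 to 1090 with TTX, and 5 of 7 lay below 0 (median -0.022), with Slc17a6, a vesicular glutamate transporter, at -0.49 ± 0.18. CPM are shares of a library's scaled total, and the cells that made the members' RNA were not identified. In such mixed cultures a change in their number, in their nascent RNA or in that of other cells cannot be told apart. The part of the progenitor and neuron markers in the members' difference was not tested.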

How the data were processed

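Nascent RNA was counted per gene in 8 BrU-seq libraries, 2 for each of HH, HT, TH and TT, grouped by their titles. The deposited values are raw read counts per gene symbol, not normalized. Per the submitters' processing notes, the tools were featureCounts, TopHat2, Bowtie2 and FastQC, and the build was rn6. Not given in the sources used here: tool versions, annotation, strand setting, and whether intronic reads counted. Columns were matched by the number that opens each description, and 2 columns that match no sample were not used.

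The test was edgeR 4.0.16 (R 4.3.3), with its expression filter (67.4% of genes kept), TMM scaling, 1 fit of the 4 group means (residual degrees of freedom: 4) and a two-sided quasi-likelihood test with robust shrinkage, adjusted over all 11372 genes. SE was obtained by dividing the size of the log2 change by the root of its F value. CPM use the TMM-scaled totals. Alternatives were DESeq2 1.42.0, limma-voom (limma 3.58.1), RLE scaling, no filter, only the groups compared, a replicate block, leaving out libraries and another prior count for log2 levels. The fit was tested on simulated counts. Members and lists were chosen with earlier results of these data known, so lists get counts and medians only. All members are named by role, and of other lists up to 3 genes by smallest p. The neural progenitor and inhibitory neuron markers tested are all named. Promoters came from RefSeq (GRCr8), matched by symbol. Figures used matplotlib 3.10.9. The labels give no batch or date.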

Additional observations from a re-analysis of the deposited data

How the results depend on the processing

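The members' median log2 change with the second TTX averaged over history lay between 0.53 (without TH replicate 1) and 0.71 (without HT replicate 1) in every alternative, with 30 or more of 32 above 0. For HT against HH the median ran from 0.56 (without HT replicate 2) to 0.94 (without HT replicate 1) and was 0.86 without HH replicate 1 and HT replicate 1 together. For TT against TH it ran from 0.40 (without TH replicate 1) to 0.58 (without TH replicate 2), for TH against HH from 0.16 (without TH replicate 2) to 0.29 (without TH replicate 1), for the interaction from -0.44 to -0.14, for TT against HT from -0.24 to 0.16 (-0.25 without both replicates 1 of HH and HT) and for the history average from -0.015 (without HT replicate 1) to 0.14 (without HT replicate 2). The cause was not tested.

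The count of genes past the adjusted threshold was 0 in each comparison. For the second TTX average it was 16 without a low-count filter, 13 in DESeq2 and 0 to 7 with 1 library left out. Leaving out 1 library gave 0 to 32 genes for HT against HH, 0 to 1 for TT against TH, 0 to 100 for the history average, 0 to 121 for TH against HH and 0 to 2 for the interaction. The highest of these came without HH replicate 2, for TT against TH without TH replicate 2, and none of the genes so called was a member.

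In the 3 comparisons of the second TTX, the sign of 6 members turned when 1 library was left out. In the second TTX average these were Ccnb2 (-0.27 to 0.51) and Cdc20 (-0.078 to 0.34), with the range over the fits that leave out 1 library. In HT against HH they were Ccnb1 (-0.054 to 0.085), Ccnb2 (-0.33 to 1.22), Cdc20 (-0.31 to 0.43), and in TT against TH Cdc20 (-0.12 to 0.59), Dlgap5 (-0.36 to 0.024), Ckap2 (-0.032 to 0.15), Kif23 (-0.052 to 0.34).

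The differences between replicates correlated at 0.447 between HH and HT and at -0.0658 to 0.0867 between the other pairs of groups. Replicate numbers thus went with shared variation between HH and HT, and not across all 4 groups. With the replicate block the medians were 0.63, 0.72 and 0.45 for the second TTX average, HT against HH and TT against TH, and no gene passed. Depth limits Ccnb2, Aurkb, Cdc20 and Ube2c, with at most 22 counts in a library. With a prior count of 0.5 the members' position in each library moved by less than the replicates' spread.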
